A study of Mus musculus with 4 samples.

Results

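The genes described here encode the respiratory chain and ATP synthase of the mouse liver. They were chosen by a pattern of names, with earlier results of these data known. The pattern took symbols of the feature list that start like a mitochondrial Nd, Co, Cytb or Atp gene. It also took those that start like a nuclear Nduf, Sdh, Uqcr, Cox4 to Cox8 or Atp5 gene. Members needed at least 50 UMIs (unique molecules counted) summed over the 4 sections. Of 31253 genes listed, 109 symbols matched the pattern and 103 reached the minimum, beside 13338 genes of the whole list that reached it. The members comprised 13 mitochondrially encoded genes and 90 nuclear genes. Of the nuclear genes, 80 encode subunits: 37 of complex I, 4 of complex II, 8 of complex III, 14 of complex IV and 17 of complex V. The other 10 are nuclear genes that are not subunits by name, namely 8 assembly factors of complex I (Ndufaf genes), the supercomplex factor Cox7a2l and the Ndufa4 paralog Ndufa4l2. Below the minimum were Cox8c with 2 UMIs, Cox7b2 with 3, the pseudogene Cox5b-ps with 26, Cox4i2 and Cox8b with 30 each, and a second feature named Atp5o with 0. Just above it lay Cox6a2 with 57 UMIs and Cox6b2 with 215.

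The respiratory chain passes electrons from NADH at complex I and from succinate at complex II through ubiquinone to complex III, then through cytochrome c to complex IV, which reduces oxygen. Complexes I, III and IV pump protons across the inner mitochondrial membrane, and complex V, the ATP synthase, uses the gradient to make ATP. Complexes I, III, IV and V are built from products of both genomes, with the mitochondrially encoded proteins in the membrane core, whereas every subunit of complex II is nuclear. Mitochondrial genes are transcribed inside the organelle as long precursors that are cut into shorter messages. Nuclear subunits are transcribed gene by gene and imported as proteins. In the liver lobule, blood flows from the portal tracts to the central vein, so that periportal hepatocytes meet more oxygen than pericentral ones.

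The study profiled fresh-frozen mouse liver by Visium, which counts polyadenylated RNA on a slide of barcoded spots, each covering several cells. There were 2 sections of the model named MAFL, from mice given the diet labelled WD for 8 weeks, and 2 of the model named MASH, given it for 16 weeks. Both names are in use for fatty liver disease linked to metabolic dysfunction, MASH for the form with steatohepatitis. Every section was from liver on the same labelled diet, so no section of untreated liver entered the comparisons, and model and weeks of diet changed together and cannot be told apart. The labels give no strain, sex or age. Whether 2 sections of a model are 2 animals is not stated in them, and the p-values below therefore speak only of how sections differ, which may be technical.

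Between 1862 and 2467 spots per section were kept, with median depths of 15430.5 UMIs per spot in MAFL-1, 19671 in MAFL-2, 25291 in MASH-1 and 20132.5 in MASH-2. Section pairs shared 1182 to 1725 spot barcodes, which come from the common set printed on Visium slides and do not mark shared cells. Hepatocyte markers (7 of 8 listed genes found) summed to between 94185 and 97989 CPM (UMIs scaled to a common library size) in every section. MASH-2 stood apart from the other 3 sections in the levels of mt-Atp8, mt-Nd4l, mt-Nd5 and mt-Co2 described below and in the sum of Malat1 and Neat1, RNAs retained in the nucleus. That sum was 436 CPM in MAFL-1, 404 in MAFL-2, 273 in MASH-1 and 557 in MASH-2. The part of either difference in the results was not tested.

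Each section's spots were ranked by the log2 ratio of Cyp2f2, a periportal hepatocyte gene, over Cyp2e1, a pericentral one, and divided into 3 equal classes, called here the periportal, middle and pericentral zones. A score of 12 zonation genes placed between 74.8% and 96.8% of the spots of a zone in the same zone. The 12 genes include Cyp2f2 and Cyp2e1, so part of this agreement was built in. All 8 listed periportal hepatocyte markers were higher and all 8 pericentral markers lower in the periportal zone (edgeR quasi-likelihood test, Benjamini-Hochberg adjusted p under 0.05, the threshold for every call below). Depth moved with the zones in 3 of 4 sections. The median UMI count per spot was 15499 periportally and 15631 pericentrally in MAFL-1, 22462 and 18560 in MAFL-2, 33004.5 and 22911 in MASH-1, and 34028 and 15755 in MASH-2.

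The mitochondrially encoded RNAs were lower at the periportal end of the lobule in every section, while the nuclear subunits differed little along it. In the pericentral zone the 13 mitochondrial genes took 4.63% of all UMIs in MAFL-1, 5.52% in MAFL-2, 4.59% in MASH-1 and 5.62% in MASH-2. In the periportal zone they took 3.46%, 4.42%, 2.94% and 4.24% in the same order. The share of the 80 nuclear subunits was 2.50%, 2.63%, 3.05% and 2.997% pericentrally and 2.54%, 2.77%, 3.15% and 3.10% periportally. The mitochondrial share was lower periportally in all 4 sections and the nuclear share was slightly higher in all 4. In tissue spots, fewer mitochondria-rich cells and less of an RNA per cell cannot be told apart.

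The log2 ratio of summed mitochondrial over summed nuclear subunit UMIs, which does not depend on library scaling, fell along the lobule. It was 0.89 in the pericentral, 0.64 in the middle and 0.44 in the periportal zone of MAFL-1. MAFL-2 had 1.07, 0.92 and 0.68, MASH-1 had 0.59, 0.47 and -0.10, and MASH-2 had 0.91, 0.83 and 0.45 in the same order. The order of the zones was the same in every section, and MASH-1 was the section whose periportal zone held fewer mitochondrial than nuclear UMIs. The periportal minus pericentral difference was -0.44, -0.39, -0.69 and -0.45 in the same order of sections, with a mean of -0.49 ± 0.13 (SD, n = 4 sections). The step from the pericentral to the middle zone was -0.14 ± 0.07 (SD, n = 4) and that from the middle to the periportal zone -0.35 ± 0.17 (SD, n = 4). The second step was the larger one in 3 sections, and in MAFL-1 the first was (-0.24 against -0.20). These ratios are given without a test.

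**Figure D1:**
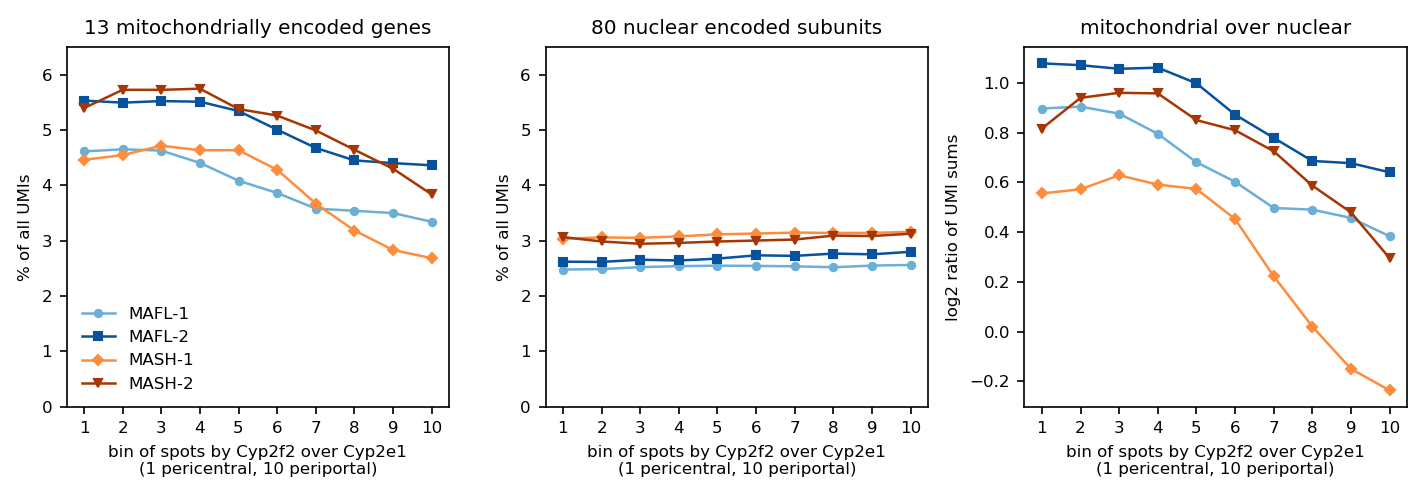
Share of all UMIs (%) taken by the 13 mitochondrially encoded genes (left) and by the 80 nuclear encoded subunits (middle), and the log2 ratio of the sums (right), over 10 equal bins of the spots of each section ranked by Cyp2f2 over Cyp2e1; each line is 1 of the 4 sections. The mitochondrial share is near level over the first 3 to 5 bins and then falls in all 4 sections, while the nuclear share stays between 2.48% and 3.16%.

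When the ranked spots were divided into 10 equal bins from the pericentral end, the ratio was highest in bin 2 of MAFL-1 (0.90), bin 1 of MAFL-2 (1.08), bin 3 of MASH-1 (0.63) and bin 3 of MASH-2 (0.96). It was lowest in bin 10, at the periportal end, in every section, with 0.38, 0.64, -0.24 and 0.30 in the same order. The pericentral end itself held the highest value in MAFL-2 only. Spot depth and the mitochondrial share moved together in 3 of 4 sections. Across spots, the mitochondrial share of UMIs and the total UMIs had a Spearman correlation of 0.07 in MAFL-1, -0.33 in MAFL-2, -0.46 in MASH-1 and -0.66 in MASH-2, given as a description over spots of 1 library that share their depth. When spots were ranked within 5 bins of total UMIs, the periportal minus pericentral difference in the ratio was -0.46, -0.35, -0.44 and -0.17, with the MAFL sections first. It kept its sign in every section and was nearly as large as before in both MAFL sections, while in MASH-2 it was the smallest of the 4.

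Gene by gene, the periportal against pericentral comparison called 2906 of 12577 genes tested, 23.1% (11.4% higher and 11.7% lower periportally). All 13 mitochondrially encoded members were called lower. Of the 89 nuclear members tested, 32 were called higher and 1 lower, while Cox6a2 did not pass the filter on low counts. With library totals alone, 29 nuclear members were higher and 5 lower, and with spots ranked within bins of total UMIs 28 were higher and 3 lower. The median log2 fold change was -0.48 for the mitochondrial genes, 0.09 for the nuclear members and 0.01 over all genes tested. Between 31 and 46 of these 46 calls were kept in each of the 12 other settings tried, 9 to 13 of them mitochondrial. Without MAFL-2, 32 members were called, 19 of them nuclear and higher, and without MASH-2 again 32, of which 21 were nuclear and higher.

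Of the 7 mitochondrially encoded subunits of complex I, 3 had log2 fold changes below -0.60. Levels are in TMM-scaled CPM, and are read between zones or sections of 1 gene only, since capture at transcript ends does not give a level per length. mt-Nd4l (MT:9877-10173, GRCm38.p6, RefSeq), a small membrane subunit, was at 50.9, 55.6, 45.0 and 131 CPM pericentrally (MAFL-1 and MAFL-2, then MASH-1 and MASH-2, here and below) and at 29.4, 40.9, 25.6 and 69.7 CPM periportally. It was lower periportally in every section, although MASH-2 was high in both zones (log2 fold change -0.76 ± 0.07 SE, edgeR adjusted p = 7.95e-09). mt-Nd5 (MT:11742-13565), a proton-pumping membrane subunit, was at 246, 270, 203 and 394 CPM pericentrally and 157, 204, 124 and 242 periportally. Its fold change was -0.62 ± 0.06 SE (edgeR adjusted p = 1.22e-08), and within each section the periportal level was the lower one. mt-Nd6 (MT:13552-14070), the only 1 of the 13 encoded on the light strand, was at 1.96, 4.01, 2.76 and 5.61 CPM pericentrally and 1.98, 3.41, 1.71 and 2.34 periportally. Its call (-0.67, edgeR adjusted p = 0.00339) rested on 3 sections, with MAFL-1 level, and without MASH-2 it was -0.37 with an adjusted p of 0.20. The call was also lost in DESeq2 (adjusted p = 0.068), with each spot thinned to 5000 UMIs (0.187) and within bins of total UMIs (0.053).

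The other 4 complex I genes of the organelle were lower periportally in each section as well. mt-Nd2, another pumping subunit, was at 4594, 5415, 3897 and 4593 CPM pericentrally and at 3096, 4167, 2376 and 3585 periportally. Its log2 fold change of -0.50 ± 0.06 SE (edgeR adjusted p = 3.52e-08) lay near those of mt-Nd1 (-0.48), mt-Nd4 (-0.42) and mt-Nd3 (-0.36), all called. These 4 genes declined without a break from the pericentral through the middle to the periportal zone in all 4 sections. The MASH-1 section had the largest fall for each of them, with -0.71 for mt-Nd2 and -0.74 for mt-Nd4.

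mt-Cytb, the cytochrome b of complex III and its only organelle product, had the smallest difference of the 13. It was at 5932, 7836, 6774 and 5315 CPM pericentrally and 4682, 6497, 4540 and 4921 periportally (log2 fold change -0.32 ± 0.06 SE, edgeR adjusted p = 3.94e-05). All 4 sections were lower periportally, by -0.58 in MASH-1 but by -0.11 in MASH-2 in TMM-scaled CPM. By library totals the difference was -0.34 in MAFL-1, -0.28 in MAFL-2, -0.56 in MASH-1 and -0.27 in MASH-2. Of the catalytic core of complex IV, mt-Co2, which receives electrons from cytochrome c, was at 3942, 4239, 3827 and 5678 CPM pericentrally and 2867, 3283, 2113 and 4249 periportally (-0.52 ± 0.08 SE, edgeR adjusted p = 7.87e-05). mt-Co3 (-0.40) and mt-Co1 (-0.36), which holds the oxygen-reducing site, were called lower as well. The call of mt-Co2 was lost without MASH-2 (-0.56, adjusted p = 0.066), as was that of mt-Nd4 (-0.47, adjusted p = 0.065), with the fold changes a little larger than before.

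The membrane part of complex V has 2 subunits from the organelle. mt-Atp6, which forms the proton channel, was at 7578, 9017, 7654 and 7713 CPM pericentrally and 5843, 7477, 4814 and 6438 periportally (-0.39 ± 0.06 SE, edgeR adjusted p = 2.99e-06). mt-Atp8 had the lowest fitted value of all members tested, -0.81 ± 0.18 SE, but the weakest adjusted p of the 13 (0.0203). It was at 38.4, 37.5, 35.1 and 122 CPM pericentrally and 25.2, 32.7, 18.3 and 53.4 periportally, lower in each section by a log2 difference of -0.61, -0.20, -0.94 and -1.19. Its call did not hold without MAFL-1, MASH-1 or MASH-2, with thinned spots or when the highest and lowest 20% of ranked spots (the outer 20%) were compared, with adjusted p between 0.070 and 0.155. The genes mt-Atp8 (MT:7766-7969) and mt-Atp6 (MT:7927-8607) overlap by 43 bases, mt-Nd4l and mt-Nd4 by 7, and mt-Nd5 and mt-Nd6 by 14 on opposite strands, and how the deposited counts split reads there is not given in the sources used here. Counts of these genes are uncertain to that extent.

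**Figure D2:**
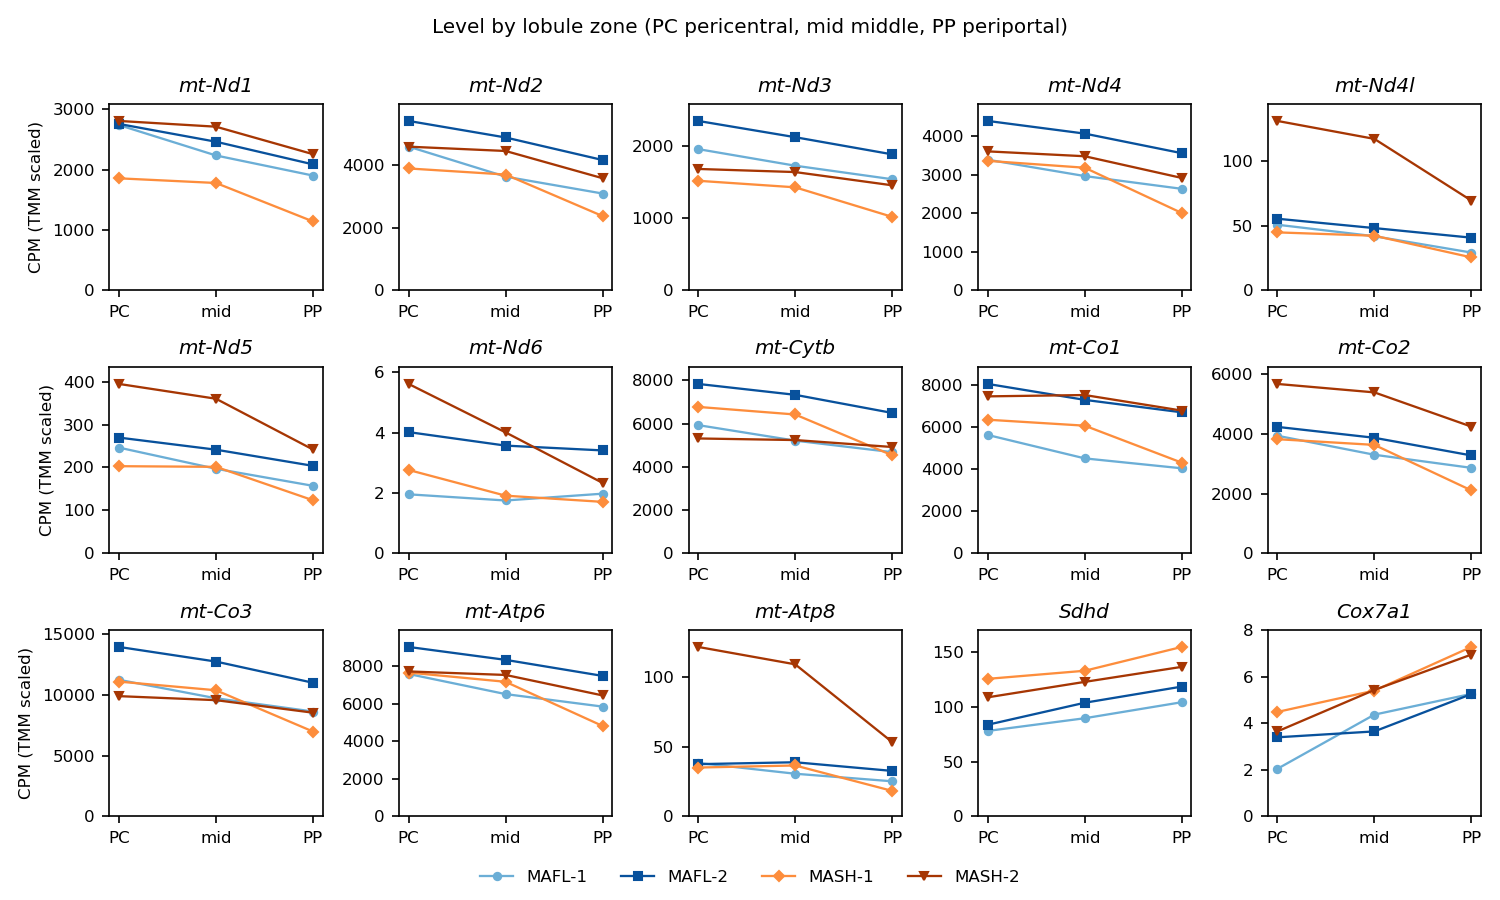
Level (TMM-scaled CPM, each y axis from 0) of the 13 mitochondrially encoded genes and of the nuclear subunits Sdhd and Cox7a1 in the pericentral, middle and periportal zone of each section; each line is 1 section. The mitochondrial genes fall toward the periportal zone, except mt-Nd6 in MAFL-1, while Sdhd and Cox7a1 rise in all 4 sections, and MASH-2 lies above the other sections for mt-Nd4l and mt-Atp8.

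Summed by complex and scaled to library totals without TMM, the organelle's subunits differed little from each other. The log2 difference of the sums, periportal minus pericentral, was -0.50 ± 0.13 (SD, n = 4 sections) for the mitochondrial subunits of complex I, -0.36 ± 0.14 for complex III, -0.45 ± 0.14 for complex IV and -0.43 ± 0.16 for complex V. For the nuclear subunits it was 0.03 ± 0.02 for complex I, 0.07 ± 0.07 for complex II, 0.02 ± 0.01 for complex III, 0.08 ± 0.03 for complex IV and 0.05 ± 0.02 for complex V. The mitochondrial sums were lower in every section for each complex. The nuclear sums differed by -0.01 to 0.16 over sections and complexes, and the nuclear sum of complex III turned to -0.00 when scaled to nuclear encoded UMIs alone.

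Among nuclear members, the periportal rise was called in every complex. It held for 11 of 37 subunits of complex I, 1 of 4 of complex II, 5 of 8 of complex III, 6 of 13 tested of complex IV and 6 of 17 of complex V, and for 3 of the 10 that are not subunits. The same direction in all 4 sections, higher periportally, was seen for 45 of 89 nuclear members (50.6%), against 18.2% of all genes tested, and lower in all 4 for 2 (2.25%), against 15.9%. The differences were small, with a median of 0.09, and after Cox7a1 (0.84) and Sdhd (0.38) the next highest called value was that of Cox5a (0.29).

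In complex II, 1 of the 4 subunits was called. Sdhd, which anchors the complex in the membrane and binds heme and ubiquinone, was at 78.0, 83.6, 125 and 109 CPM pericentrally and at 104, 118, 154 and 136 CPM periportally. It was higher periportally in each section, by 0.42, 0.50, 0.30 and 0.33 on the log2 scale (log2 fold change 0.38 ± 0.04 SE, edgeR adjusted p = 9.31e-09). The flavoprotein Sdha was at 219, 246, 264 and 224 CPM pericentrally and 223, 264, 265 and 240 periportally. Sdha (0.06), the iron-sulfur subunit Sdhb (0.01) and the second membrane anchor Sdhc (0.06) did not pass the test, and Sdhb was lower periportally in 2 sections and higher in 2. Sdhd was also the only member called between the middle and pericentral zones (0.19, edgeR adjusted p = 0.0118; 3.39% of genes called, 1.5% higher and 1.88% lower). That call was lost without either MAFL section, with an adjusted p of 0.088 without MAFL-1 and 0.24 without MAFL-2, and in DESeq2 (0.062).

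In complex IV, Cox7a1, the isoform known as the heart and muscle form of subunit 7a, had the largest rise of all members. It was at 2.05, 3.40, 4.49 and 3.66 CPM pericentrally and 5.27, 5.26, 7.29 and 6.96 periportally, and the zones did not overlap over the 4 sections (log2 fold change 0.84 ± 0.13 SE, edgeR adjusted p = 3.08e-06). Of the 8 muscle and adipose markers, Ckm, Plin1, Ucp1 and Myh1 had at most 3 UMIs in every section. The list's summed level, between 11.9 and 392 CPM over whole sections, was higher pericentrally in each section. The form present in most tissues, Cox7a2, was at 426, 380, 502 and 428 CPM pericentrally and 476, 433, 569 and 529 periportally (0.21, edgeR adjusted p = 0.000409). Cox7a2l, which links complexes III and IV, rose too (0.17), though it lost its call without MASH-1 and with thinned spots. Cox5a, a matrix-side subunit, was at 331, 339, 386 and 335 CPM pericentrally and 386, 426, 469 and 416 periportally. It was higher in each section by 0.22 to 0.33 (0.29 ± 0.04 SE, edgeR adjusted p = 2.17e-06). Cox4i1, the most counted nuclear member of complex IV, was at 1202, 1308, 1319 and 1002 CPM pericentrally and 1156, 1313, 1316 and 1147 periportally, and it was not called. The testis form Cox6b2 (0.53) did not pass the test at levels of 0.325 to 2.16 CPM in the outer zones.

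Complex III had the largest share of called subunits. Uqcrh, the hinge protein near cytochrome c1, was at 352, 379, 447 and 391 CPM pericentrally and 400, 462, 533 and 516 periportally, higher in all 4 sections (0.28 ± 0.05 SE, edgeR adjusted p = 7.56e-06). The Rieske iron-sulfur protein Uqcrfs1 (0.16) and the core protein Uqcrc2 (0.16) were called with it, as were Uqcrb and Uqcr10. Uqcrfs1 and Uqcrc2 lost their calls without MAFL-2, and Uqcrc2 also with thinned spots. Uqcrq, the most counted nuclear member of the complex, ran the other way in 3 sections in TMM-scaled CPM, and in all 4 by library totals. It was at 1373, 1470, 1563 and 1208 CPM pericentrally and 1264, 1333, 1422 and 1268 periportally (-0.08, not called). It was called lower with library totals alone (-0.12, edgeR adjusted p = 0.0083), without MASH-2 (-0.13, adjusted p = 0.012) and within bins of total UMIs (-0.09, adjusted p = 0.044).

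In complex V, called members lay in the catalytic head, the stalk and the membrane part. Atp5a1, the alpha subunit of the head, was at 665, 748, 776 and 621 CPM pericentrally and 744, 874, 906 and 752 periportally (0.22, edgeR adjusted p = 0.00023). Atp5pb of the peripheral stalk (0.22) and the small membrane proteins Atp5md (0.26) and Atp5mpl (0.23) rose by like amounts. Of the 3 genes for the same ring protein, Atp5g1 was called (0.20) and Atp5g2 (0.07) and Atp5g3 (0.08) were not, though Atp5g3 was without MASH-1 (0.15, adjusted p = 0.034). The difference between these isoforms was not tested. Atp5e, the epsilon subunit, was the nuclear member called lower. It was at 1171, 1308, 1184 and 1100 CPM pericentrally and 1022, 1149, 1029 and 1145 periportally, lower in 3 sections and higher in MASH-2. The TMM factor of MASH-2 was 1.14 pericentrally and 1.02 periportally, and by library totals Atp5e was lower periportally in MASH-2 too. The Atp5e call (-0.13, edgeR adjusted p = 0.0494) was lost without MAFL-1, MAFL-2 or MASH-1, in DESeq2, with thinned spots and with the outer 20% of spots.

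Among nuclear complex I subunits, those called were spread over the arms of the enzyme. Ndufa5 of the matrix arm had the largest rise, from 139, 151, 168 and 125 CPM pericentrally to 167, 177, 188 and 160 periportally (0.25, edgeR adjusted p = 2.91e-05). The large iron-sulfur subunit Ndufs1, part of the conserved core, was higher (0.15), though it lost its call without MAFL-2 or MASH-2, in DESeq2, with thinned spots and with the outer 20% of spots. Of the 30 supernumerary subunits, which surround the core, 9 were higher. The lowest values were those of Ndufa10 (-0.11), Ndufs6 (-0.07), Ndufs5 (-0.07), Ndufb3 (-0.05), Ndufv1 (-0.05) and Ndufs7 (-0.04), none of them called in this fit. With library totals alone, Ndufa10, Ndufs5 and Ndufs6 were called lower (adjusted p = 0.0063, 0.036 and 0.021), and Ndufa10 was also called lower with thinned spots (0.041) and within bins of total UMIs (0.031). Of the assembly factors, Ndufaf7 (0.27), a methyltransferase, and Ndufaf8 (0.21) were higher. Ndufaf7 lost its call in 9 of 12 other settings, with values of 0.16 to 0.48 and adjusted p up to 0.25, and Ndufaf8 lost its call with thinned spots (0.14).

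**Figure D3:**
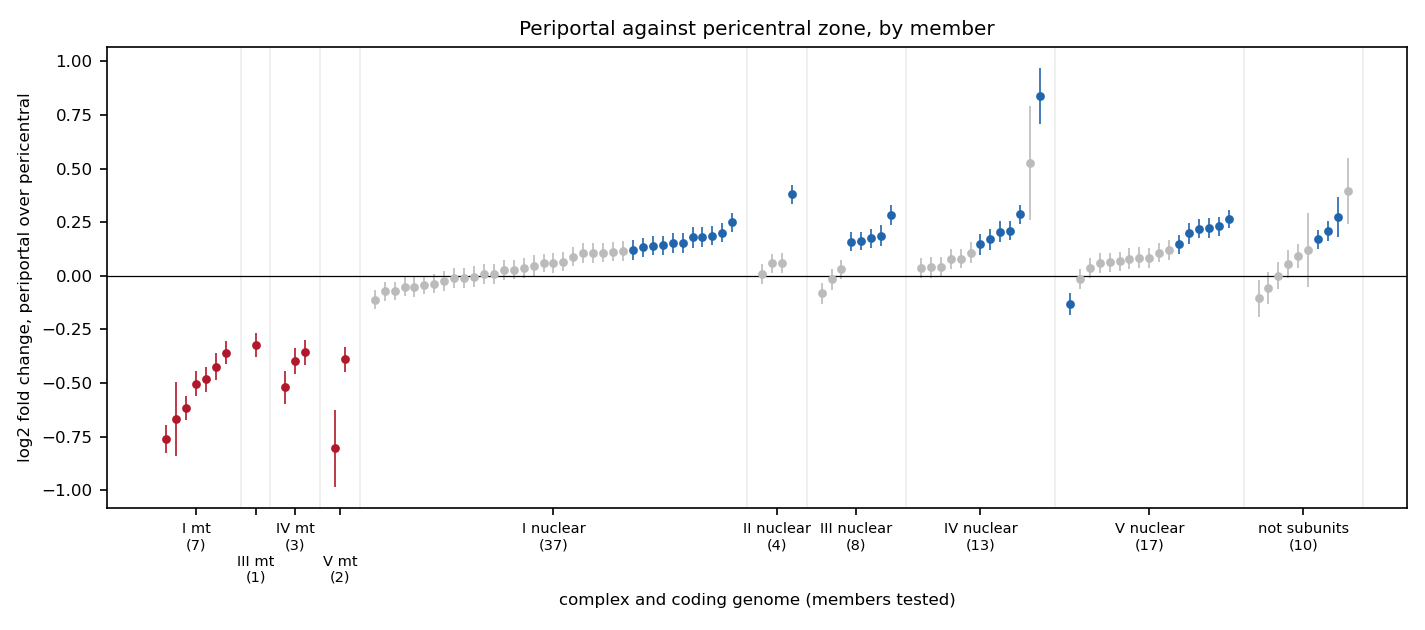
Log2 fold change, periportal over pericentral zone, of each member tested, ordered by value within its complex and coding genome (number tested in brackets); bars are 1 SE of the edgeR fit, and red (mitochondrial) or blue (nuclear) marks an adjusted p under 0.05. All 13 mitochondrial genes lie between -0.81 and -0.32, and the nuclear members lie between -0.13 and 0.84.

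More members were called on the periportal side of the lobule than on the pericentral one, as were more of all genes tested (9.06% against 3.39%). Between the periportal and middle zones, 9.06% of genes were called (4.29% higher and 4.76% lower), and among members 11 of 13 mitochondrial genes were lower and 10 of 89 nuclear members higher. The 2 mitochondrial genes not called were mt-Atp8 and mt-Nd6. The nuclear members were Sdhd, Cox5a, Cox7a1, Cox7a2, Uqcrh, Uqcrb, Ndufa5, Atp5pb, Atp5md and Atp5mpl. With library totals in place of TMM scaling, 7 nuclear members were higher and 2 lower beside the 11 mitochondrial ones. Without MASH-2, 11 members in all were called in this comparison. Between the middle and pericentral zones all 13 mitochondrial values were negative, with a median of -0.13. None was called by edgeR in the main fit or by DESeq2, although 8 had an unadjusted p under 0.05. With no filter on low counts, edgeR called 2 of them lower.

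Markers of cells other than hepatocytes differed between the same zones. Bile duct markers were higher periportally for 7 of 8 genes, with sums of 535 to 989 CPM periportally against 438 to 701 pericentrally. Endothelial markers were lower for 6 of 8 genes, with sums of 178 to 211 CPM against 225 to 330. Of the stellate and fibroblast list 3 genes were higher and 3 lower, with sums of 155 to 470 CPM periportally against 224 to 591 pericentrally and lower in every section. Of the monocyte and macrophage list 4 of 8 genes were higher and of the Kupffer cell list 3 of 8. Hepatocyte markers were higher for 4 of 7, with sums of 111359 to 114330 CPM against 73922 to 82442. Malat1 and Neat1 together were at 229 to 410 CPM periportally and 300 to 802 pericentrally, with 1 of the 2 called lower. The part of these cells and RNAs in the members' differences was not tested.

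Promoters of nuclear members are shown for Sdhd, Uqcrh and Cox7a1, the members with the largest periportal rise in complexes II, III and IV, because they differ in the sites known from respiratory genes. RefSeq promoter windows (GRCm38.p6, 250 bases before to 50 after the start) were found for 74 of the 90 nuclear members. Motifs were searched on both strands: the palindromic consensus of NRF1, CCGGAAG for ETS factors such as GABP, AAGATGGC for YY1, AAGGTCA for estrogen-related receptors and TATAAA for the TATA box. These words do not contain each other, though sites may overlap. Each sequence is written along the gene's own strand, with matches in capitals. The windows are chr9:50603800-50604099 (minus strand) for Sdhd, chr4:116075021-116075320 (minus strand) for Uqcrh and chr7:30183921-30184220 (plus strand) for Cox7a1.
Sdhd: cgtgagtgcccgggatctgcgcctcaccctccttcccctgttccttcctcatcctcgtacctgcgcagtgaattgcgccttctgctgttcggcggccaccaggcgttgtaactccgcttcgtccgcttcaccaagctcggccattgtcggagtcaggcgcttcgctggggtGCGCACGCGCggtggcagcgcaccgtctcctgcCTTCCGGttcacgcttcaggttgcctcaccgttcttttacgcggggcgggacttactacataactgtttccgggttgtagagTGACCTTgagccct
Uqcrh: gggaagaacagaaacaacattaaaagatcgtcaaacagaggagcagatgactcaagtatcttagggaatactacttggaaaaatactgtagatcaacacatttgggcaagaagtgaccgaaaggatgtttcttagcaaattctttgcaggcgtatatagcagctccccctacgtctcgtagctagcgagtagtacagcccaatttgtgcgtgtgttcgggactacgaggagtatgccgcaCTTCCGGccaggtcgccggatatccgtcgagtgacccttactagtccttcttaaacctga
Cox7a1: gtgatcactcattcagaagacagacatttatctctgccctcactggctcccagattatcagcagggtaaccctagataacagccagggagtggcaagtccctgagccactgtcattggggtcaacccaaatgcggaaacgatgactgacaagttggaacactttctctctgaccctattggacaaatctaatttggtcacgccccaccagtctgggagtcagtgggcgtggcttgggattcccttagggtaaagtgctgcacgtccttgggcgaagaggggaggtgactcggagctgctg

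The Sdhd window held an NRF1 word that begins 79 bases before the start, an ETS word on the opposite strand 46 bases before it and a receptor word on the opposite strand 36 bases after it. The Uqcrh window held an ETS word on the opposite strand 10 bases before the start, and the Cox7a1 window held none of these words. Of the 74 nuclear members with a window, 19 (25.7%) held the NRF1 word in at least 1 window. Over all 27025 genes with windows of the same length, 5.19% did. The ETS word was in 19 (25.7%, against 9.93%), the YY1 word in 11 (14.9%, against 3.19%), the receptor word in 8 (10.8%, against 5.38%) and the TATA word in 6 (8.11%, against 15.7%). Of the 25 members with a window that were called higher periportally, 5 held the NRF1 word, and of the 49 other members tested 14 did. The ETS word was in 6 of the 25 and 13 of the 49. A match is a stretch of letters and not a measured binding site.

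Between the models, no member passed the test in whole sections. MASH against MAFL called 62 of 13593 genes (0.456%), and 0 of the 103 members by edgeR or by DESeq2. An unadjusted p under 0.05 was seen for 14 members, all nuclear, and for 2604 of all genes. The lowest adjusted p among members was 0.139. The median log2 fold change was -0.16 for the mitochondrial genes, 0.16 for the nuclear members and 0.01 over all genes tested. With library totals alone the medians were -0.05, 0.26 and 0.11, so that all genes shifted by about the same amount. Leaving out MASH-1 gave 2 calls, mt-Atp8 and mt-Nd4l, described below.

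The nuclear subunits took 2.53% of UMIs in MAFL-1 and 2.70% in MAFL-2, against 3.11% in MASH-1 and 3.05% in MASH-2. The groups did not overlap in these shares of library totals. The TMM factors used in the tests were 0.985 and 0.946 in the MAFL sections and 0.994 and 1.08 in the MASH sections. With these factors applied, the nuclear share of MASH-2 lies below that of MAFL-2, so the groups overlap. In library totals the mitochondrial genes took 4.02% and 4.99% in the MAFL sections and 3.84% and 4.87% in the MASH sections. There the groups overlapped. The log2 ratio of the sums was 0.67, 0.88, 0.30 and 0.68, with the MAFL sections first and means of 0.78 ± 0.15 (SD, n = 2) in MAFL and 0.49 ± 0.26 (SD, n = 2) in MASH, a difference within the spread. With 2 sections a group, an exact permutation test could not give a p below 0.3333. Gene by gene, 73 of 90 nuclear members (81.1%) had a higher fitted level in MASH, against 50.7% of all genes tested. The CPM of the groups did not overlap, with MASH higher, for 47 nuclear members (52.2%, against 26.9% of all genes) and, with MASH lower, for 6 (6.67%, against 26.4%).

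At 20 CPM or more, the nuclear members with the largest positive values came from several complexes. Below that level, Cox6a2 had a higher value (0.65, edgeR adjusted p = 0.524), with 0.222 to 0.436 CPM in the 4 sections. Ndufa1, a small membrane subunit of complex I, was at 139 and 145 CPM in MAFL-1 and MAFL-2 and at 183 and 237 in MASH-1 and MASH-2 (0.57 ± 0.19 SE, edgeR adjusted p = 0.185). Uqcrb, a small subunit of complex III, was at 174 and 203 CPM against 290 and 261 (0.55 ± 0.18 SE). Cox8a of complex IV was at 446 and 492 CPM against 753 and 565 (0.49), and Cox7c at 647 and 761 against 1066 and 893 (0.48). The MASH sections were above both MAFL sections for each of these genes, and so they were for Sdhd, at 90.1 and 103 CPM against 139 and 125 (0.45). Ndufb1-ps (0.52), Atp5g2 (0.49) and Ndufb4 (0.44) lay in the same range, as did Cox7a1 (0.52) at a low level. None of these values passed the test, so the data do not separate them from the spread between sections.

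The lowest values came from complexes I, III, IV and V and from assembly factors. Ndufs7, a core subunit next to the ubiquinone site, was at 165 and 161 CPM in MAFL against 132 and 118 in MASH (-0.38 ± 0.16 SE, edgeR adjusted p = 0.259). Atp5o of the peripheral stalk was at 383 and 435 CPM against 347 and 362 (-0.20). For both genes the groups did not overlap. Ndufb7 (-0.18), Ndufaf1 (-0.17), the NADH-binding Ndufv1 (-0.16), Uqcrc1 (-0.15), Ndufb10 (-0.11) and Ndufaf2 (-0.11) followed. Within complex I, the 7 nuclear core subunits had a median of 0.02 and the 30 supernumerary subunits one of 0.24. The groups did not overlap for 18 of the 30 supernumerary subunits, each higher in MASH, and for 4 of the 7 core subunits, of which 2 were higher and 2 lower. Higher in MASH were thus 60.0% of the supernumerary and 28.6% of the core subunits, against 26.9% of all genes, and lower 28.6% of the core subunits, against 26.4%. The difference between these kinds of subunit was not tested. Cox6b2 had the lowest value of all members (-1.35 ± 0.37 SE, edgeR adjusted p = 0.139), at 2.42 and 1.47 CPM in MAFL and 0.789 and 0.727 in MASH. Without the filter on low counts it was the 1 member called (adjusted p = 0.0176).

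By complex, the summed nuclear subunits of MASH minus MAFL differed by 0.25 on the log2 scale in complex I, 0.34 in complex II, 0.18 in complex III, 0.31 in complex IV and 0.18 in complex V. The pooled SD within groups was 0.03, 0.10, 0.08, 0.06 and 0.06 in the same order. These sums are scaled to library totals, where the median over all genes was 0.11. With the TMM factors applied, the groups overlap in complexes III and V. By library totals, the 4 subunits of complex II together were at 534 and 613 CPM in MAFL-1 and MAFL-2 against 717 and 736 in MASH-1 and MASH-2. In TMM-scaled CPM, Sdhc was at 102 and 118 against 128 and 149 (0.33) and Sdhb at 130 and 176 against 186 and 179 (0.26). Sdha was at 220 and 250 TMM-scaled CPM against 268 and 230. The mitochondrial sums differed by -0.15 in complex I, -0.09 in complex III, 0.01 in complex IV and -0.04 in complex V, less than the spread between sections.

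**Figure D4:**
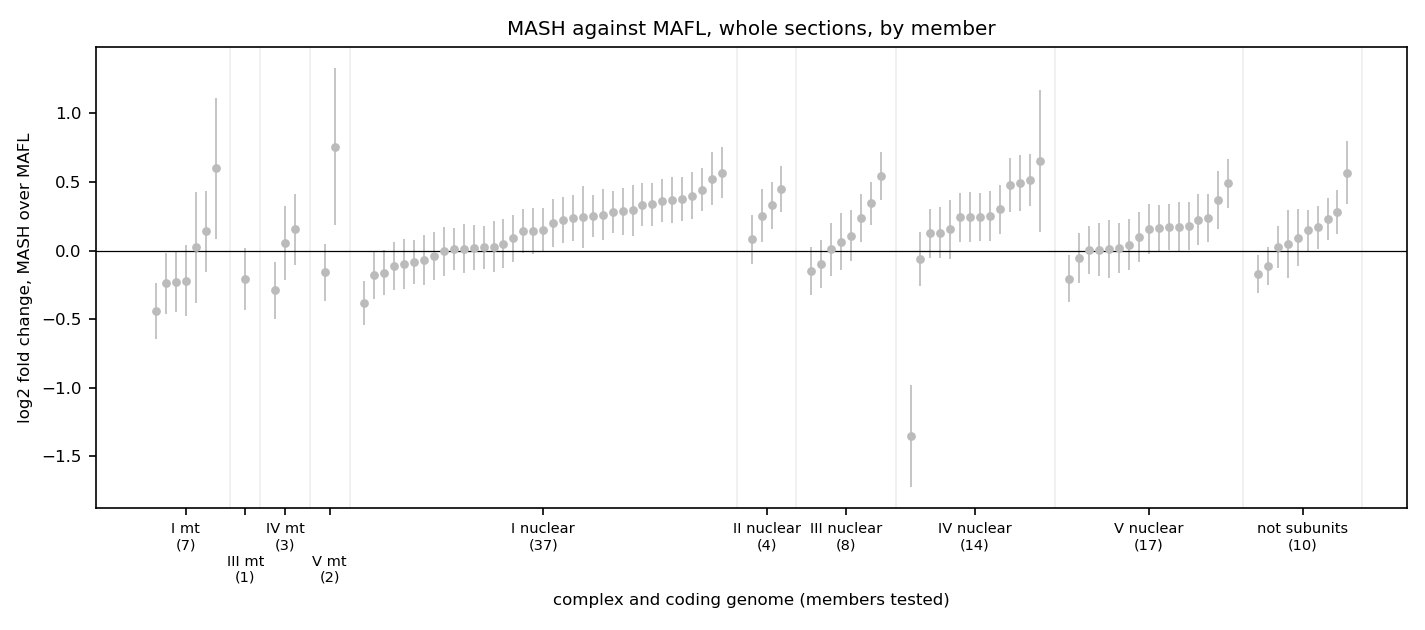
Log2 fold change, MASH over MAFL in whole sections, of each member, ordered by value within its complex and coding genome (number tested in brackets); bars are 1 SE of the edgeR fit and grey marks an adjusted p of 0.05 or more. No member passes the test; 73 of 90 nuclear members lie above 0, and the lowest point is Cox6b2 at -1.35.

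For 11 of the 13 mitochondrial genes the sections of the groups overlapped. mt-Nd3 was at 1736 and 2110 CPM in MAFL and 1281 and 1554 in MASH (-0.44, edgeR adjusted p = 0.294), and mt-Co3 at 9823 and 12490 against 9147 and 9098 (-0.29). These were the 2 of 13 genes whose groups did not overlap, both lower in MASH (15.4%, against 26.4% of all genes). mt-Cytb was at 5259 and 7198 CPM against 5728 and 5076 (-0.21), mt-Atp6 at 6623 and 8250 against 6315 and 7018 (-0.16), and mt-Co1 at 4728 and 7351 against 5421 and 7132 (0.06). MAFL-2 was the highest section for each of these 3. The fitted values of the other complex I genes were -0.24 for mt-Nd2, -0.23 for mt-Nd4 and -0.22 for mt-Nd1.

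For 5 mitochondrial genes MASH-2 was the highest section and MASH-1 the lowest. mt-Atp8 was at 31.3, 36.2, 28.5 and 85.8 CPM, with the MAFL sections first. mt-Nd4l was at 40.6, 48.0, 36.1 and 98.1, mt-Nd5 at 200, 237, 169 and 312, and mt-Co2 at 3361, 3778, 3054 and 4899 in the same order. The same order held for mt-Nd1, at 2288, 2425, 1536 and 2510 CPM. For mt-Atp8 and mt-Nd4l the MASH-2 level lay far above the other sections, and for mt-Nd1 close to the MAFL sections. The fitted fold changes were 0.76 for mt-Atp8, 0.60 for mt-Nd4l, 0.14 for mt-Nd5 0.16 for mt-Co2 and -0.22 for mt-Nd1, with a negative sign for all 5 when MASH-2 was left out. Without MASH-1, mt-Atp8 (1.33, edgeR adjusted p = 0.0219) and mt-Nd4l (1.13, adjusted p = 0.0345) were called, with MASH-2 as the lone MASH section assumed to vary like the MAFL sections. mt-Nd6, at 1.89, 3.66, 2.07 and 3.61 CPM, showed no order by group (0.02).

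Within each zone the models did not differ by the test for any member. No member was called by edgeR or DESeq2 in the periportal (1.28% of genes called), the middle (0.453%) or the pericentral zone (0.602%). An unadjusted edgeR p under 0.05 was seen for 10, 9 and 9 of 102 members in the same order, all nuclear. Over all genes it was seen for 2192 of 12480, 1930 of 11913 and 2076 of 11802, a larger share in each zone. The lowest adjusted p among members was 0.178, 0.129 and 0.164. The median of the mitochondrial genes was -0.24 in the periportal, -0.01 in the middle and -0.10 in the pericentral zone, and that of the nuclear members 0.19, 0.15 and 0.13. The mitochondrial to nuclear log2 ratio was 0.56 ± 0.16 in MAFL and 0.18 ± 0.39 in MASH in the periportal zone, and 0.98 ± 0.13 and 0.75 ± 0.23 in the pericentral zone (SD, n = 2 each). With MASH-2 as the lone MASH section, the mitochondrial median was -0.02 in the periportal, 0.21 in the middle and 0.03 in the pericentral zone. The nuclear median was 0.16, 0.05 and 0.02 in the same order.

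Monocyte and macrophage markers moved with the model. Their 8 genes summed to 121 and 137 CPM in the MAFL sections and 434 and 497 in the MASH sections, and 3 were called higher in MASH. Kupffer cell markers summed to 490 and 622 CPM against 953 and 1031, and stellate and fibroblast markers to 205 and 188 against 318 and 521, with no gene of either list called. T, NK and B cell markers summed to 18.0 and 24.4 CPM against 42.1 and 175, and bile duct markers to 554 and 478 against 518 and 864, with MASH-2 the highest section for both and no gene called between the models. Red blood cell markers summed to 1421 to 4211 CPM with no called gene in this comparison or between the zones, and the T, NK and B list had none between the zones either. The part of these cells in the nuclear members' values was not tested.

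The difference of the zone contrast between MASH and MAFL, tested as an interaction, called 66 of 12577 genes (0.525%) and 1 member, mt-Atp8. Its periportal over pericentral log2 difference was -0.61 and -0.20 in the MAFL sections and -0.94 and -1.19 in the MASH sections. How many of all genes separate the groups in this way was not counted. The interaction was -0.70 (edgeR adjusted p = 0.000518). It was lost without MAFL-2 (-0.48, adjusted p = 0.82) and with zones taken within bins of total UMIs (-0.04, adjusted p = 0.99). The median interaction of the 13 mitochondrial genes was -0.14 and that of the 89 nuclear members 0.03. Without MASH-1 the mitochondrial median turned to 0.06 and the nuclear median was 0.11. Without MASH-2 the mitochondrial median was -0.27 and the nuclear median -0.04. With all sections and spots ranked within bins of total UMIs the mitochondrial median was 0.10 and no member was called. The sign of the mitochondrial median thus depended on which MASH section was left out and on spot depth.

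Other genes of the pathway, from lists of carriers, regulators and enzymes, were described the same way. Of 18 tested electron carriers and entry points, 3 were higher and 4 lower periportally, against 11.4% and 11.7% of all genes. Cycs, the cytochrome c that links complexes III and IV, was higher (0.34, edgeR adjusted p = 5.87e-08), as was Sqor, which passes electrons from sulfide to ubiquinone (0.59). Prodh, the first enzyme of proline breakdown (-0.64), and Gpd2, the mitochondrial glycerol phosphate dehydrogenase (-0.52), were lower. Between the models, 0 of the 116 genes tested in 7 such lists were called by edgeR, and 22 had an unadjusted p under 0.05. DESeq2 called 5 (Coa6, Cycs, Mterf1a, Slc25a4 and Ucp2). The shares over all 13593 genes tested were similar, with 2604 under 0.05 in edgeR and 627 called by DESeq2. Cycs was at 121 and 106 CPM in MAFL and 167 and 169 in MASH (0.57, edgeR adjusted p = 0.148, and 0.041 in DESeq2). Without the filter on low counts, the receptor Esrra was called lower in MASH (-0.63, edgeR adjusted p = 0.0176).

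Genes that copy, transcribe and handle mitochondrial RNA differed little by zone. Of 21 tested, Lrpprc, which stabilizes mitochondrial messages, was higher periportally (0.20, edgeR adjusted p = 0.00164), and the transcription factor Mterf3 was lower (-0.33, adjusted p = 0.0209, lost in 6 of 12 other settings). Tfam, which packages mitochondrial DNA, was not called. Of 9 regulators tested, the coactivator Ppargc1a (0.52) and the receptor Esrra (0.25) were higher and Ppara (-0.67) lower. Ppargc1a lost its call without MAFL-2 or MASH-1, in DESeq2 and with the outer 20% of spots, and with thinned spots its value was 0.01 (adjusted p = 0.988). Ppara lost its call without MASH-1 and with the outer 20% of spots, and Esrra (0.20) and Cs (-0.28) lost theirs with thinned spots. Of 14 citric acid cycle genes, 8 were higher, among them Fh1 (0.27), and Cs, the citrate synthase, was lower (-0.33). Of 36 assembly factors tested, 5 were higher and 2 lower. Of 9 genes listed under carriers and coupling 4 were higher, and of 9 stress and chaperone genes 2 were higher. Over all genes tested, for comparison with each of these lists, 11.4% were higher and 11.7% lower periportally.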

How the data were processed

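The authors deposited UMI counts per gene and spot for 4 Visium liver sections, which per the file headers come from Space Ranger (version 1.2.2) and per the submitters' processing notes from build mm10. Aligner settings and annotation are not given in the sources used here. Spots under 500 UMIs (3 in MAFL-1, 3 in MASH-1) were left out. Counts were summed per section or per zone of ranked spots (12 sums with section as a term) and tested two-sided by robust quasi-likelihood in edgeR (version 4.0.16) after filterByExpr and TMM, adjusted by Benjamini-Hochberg over all genes tested, with DESeq2 1.42.0 as an alternative. Sections summed to 32249289, 38126800, 63808230 and 44581221 UMIs, with the MAFL sections first. Replicates differed beyond sampling noise (chi-square per degree of freedom 67.7 in MAFL, 116 in MASH). Cyp2f2 and Cyp2e1, which set the zones, were left out of zone counts. The edgeR step was tested on simulated data.

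The members and gene lists were chosen with earlier results of these data known. Genes named were the mitochondrial members, the 8 nuclear members with the highest and the 8 with the lowest fold change per comparison at 20 CPM or more, the most counted nuclear member of each complex, isoform pairs and the 4 Sdh genes. Other names were chosen after their values were seen. Alternatives were DESeq2, scaling by library totals or without mitochondrial genes, no filter, each section left out, spots thinned to 5000 UMIs, a 12-gene zone score, the outer 20% of spots, zones within 5 depth bins and the replicate number as a block. Many nuclear members have processed pseudogenes, and how reads shared with them were counted is not given in the sources used here. Spots may hold several cell types, so no doublet caller was run. Python 3.11.15 and R 4.3.3 were used.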

Additional observations from a re-analysis of the deposited data

Results flagged for a closer look

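The zone contrast of mt-Atp8, the small organelle-encoded subunit of the ATP synthase membrane part, differed between the models by an interaction test. The periportal over pericentral contrast in MASH minus that in MAFL was -0.70 on the log2 scale (edgeR adjusted p = 0.000518). The contrast was -0.94 and -1.19 in the MASH sections and -0.61 and -0.20 in the MAFL sections. Over 12 other settings the interaction ranged from -0.91 to -0.04. It was lost with zones taken within bins of total UMIs (-0.04, edgeR adjusted p = 0.99), and it was -0.48 without MAFL-2. MASH-2, with 85.8 CPM over the whole section, held more of this RNA than the other 3 sections, which had 28.5 to 36.2 CPM.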

How the results depend on the processing

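In whole sections the count of members called between the models moved from 0 to 1 with no filter and to 0 to 2 with a section left out. Within zones, no filter gave 3 in the middle zone, where calls over all genes rose from 54 to 964. With MASH-1 left out, members were called in each zone, and more of all genes were called as well. Between the outer zones the 46 members became 32 to 43 with a section left out. Between the middle and pericentral zones the 1 member became 0 in DESeq2, 3 with no filter and 0 to 2 with a section left out. Between the periportal and middle zones the 21 became 11 to 20 with a section left out. The interaction's 1 member became 0 in depth bins and 0 to 16 with a section left out. The mean zone difference of the mitochondrial to nuclear ratio became -0.35 in depth bins. Scaled to nuclear encoded UMIs, the nuclear sum of complex III turned to -0.00035 and that of complex V moved from 0.05 to 0.0333. The cause of these changes was not tested. Over all genes, the calls between the models in whole sections (62) became 627 in DESeq2, 42 with library totals, 1153 with no filter, 129 with thinned spots and 20 to 535 with a section left out, and those between the outer zones (2906) became 1684 in DESeq2 and 1307 with thinned spots.

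The replicate numbers of the titles were tried as a block. Same-numbered sections had deviations correlated at -0.20 over 4112 genes, so the numbers were not taken as a pairing. With the replicate block, 0 genes and 0 members were called in whole sections, and 71, 29 and 71 genes and 0 members in the periportal, middle and pericentral zones. With crossed numbers, chosen after seeing the data, 781 genes and 0 members were called.

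With a section left out, the sign of the whole-section fold change between the models turned for 9 mitochondrial genes, whose values ranged from -0.24 to 1.33 for mt-Atp8, -0.29 to 1.13 for mt-Nd4l, -0.36 to 0.49 for mt-Nd5, -0.43 to 0.57 for mt-Nd6, -0.24 to 0.40 for mt-Co1, -0.22 to 0.44 for mt-Co2, -0.62 to 0.0708 for mt-Nd1, -0.42 to 0.0315 for mt-Cytb and -0.32 to 0.0018 for mt-Atp6, and Ndufs7 turned to 0.0399 between the outer zones with thinned spots.

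With 2 sections a group, small differences between models could not be called. At 0.2 to 7 CPM, Cox6a2, Cox6b2, Cox7a1 and mt-Nd6 rested on few UMIs. Intervals cover sections, not animals.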

Other observations

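Within spots, the mitochondrial and nuclear sums did not move together. With each spot thinned to 5000 UMIs, the Spearman correlation between the UMIs of the 13 mitochondrial genes and those of the 80 nuclear subunits was -0.21 in MAFL-1, -0.29 in MAFL-2, -0.22 in MASH-1 and -0.19 in MASH-2, given as a description over 1846 to 2424 spots of 1 library that share a fixed total. The median thinned spot held 193, 250, 201 and 265.5 mitochondrial UMIs and 126, 134, 155 and 149 nuclear subunit UMIs in the same order. Across all spots the nuclear share had Spearman correlations to total UMIs of 0.01, 0.26, 0.20 and 0.39 in the same order. Between 6.87% and 8.83% of spots lay within 0.1 log2 units of a border between zones.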
